A study of Mus musculus with 18 samples.

Results

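Brown fat burns fuel for heat in newborn mice. Its cells hold many small lipid droplets and many mitochondria, and the uncoupling protein Ucp1 lets protons leak back across the inner mitochondrial membrane so that respiration yields heat. Depots of brown fat lie under the skin between the shoulder blades and along the neck and spine, next to muscle and bone, and the spinal cord itself is not known to contain fat cells. Which cells the transcripts described here came from was not tested.

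The brown fat genes described here are 8 of the 58570 gene loci of the deposited tables, found by symbol, including any part of a joined symbol. They were chosen because several of them were high in spinal cords of mice with spinal muscular atrophy (SMA), so every difference between SMA and control cords in these 8 genes is given as a description, with no test. The members are Ucp1, Fabp4, Cox8b, Cox7a1, Cidea, Adipoq, Plin1 and Elovl3. The name fits some of them better than others. Ucp1 marks thermogenic fat, and Cidea and Elovl3 are strongly expressed there. Cox8b and Cox7a1 are also the forms of their subunits in heart and skeletal muscle, Adipoq and Plin1 belong to white and brown fat cells alike, and Fabp4 is expressed by fat cells, capillary endothelium and macrophages.

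The cords came from the SMNΔ7 mouse line, a model of SMA caused by loss of the survival motor neuron protein. Homozygous pups, labelled SMA, were set against heterozygous pups, labelled control, at postnatal days 2, 6 and 10 (P2, P6 and P10). Affected pups of this line lack the mouse gene Smn1 and live on human SMN transgenes; the line is generally kept so that its control littermates carry those transgenes too, and the labels give strain and genotype but no transgene status. Whole cords were lysed, and per the labels 3 libraries were made for each of the 6 groups. The labels give no sex and do not say whether the 3 libraries were 3 animals. The groups differed in genes that depend on sex at every age. The joined locus of Xist, the RNA that silences an X chromosome in females, was 67.3 FPKM in SMA and 0.0639 FPKM in control cords at P2, 33.6 and 69.8 FPKM at P6, and 69.0 and 29.1 FPKM at P10. The Y-linked Ddx3y was 6.82 FPKM in SMA and 17.9 FPKM in control cords at P2, 14.9 and 4.92 FPKM at P6, and 6.63 and 13.1 FPKM at P10. Sex differences between the groups are therefore mixed into every contrast below, and their part was not tested.

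Because the deposited tables give a single combined value per group for each locus, no value below has a replicate SD. Levels are in FPKM, a fragment count divided by transcript length and library depth, with the authors' interval around each; a second table holds the estimated fragments. Estimated fragments summed to between 6881671 and 7386338 per group. At that depth 3 fragments, used here as a floor, correspond to about 0.208 FPKM of Ucp1 in SMA cords at P6 and to 2.01 FPKM of the short Cox8b transcript. Neuronal and glial markers and the thoracic Hox genes were present in all 6 groups; Snap25 ranged around a mean of 133 FPKM and Hoxc8 around 19.3 FPKM. Smn1 was 0.0210 FPKM in SMA cords and 2.70 FPKM in control cords at P2, and was listed at 0 in SMA cords and at 4.46 FPKM in control cords at P6. In the group labelled SMA at P10 it was 2.82 FPKM, against 3.54 FPKM in control cords, so that group did not show the loss of Smn1 that its label implies.

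Of the 8 genes, 6 (Ucp1, Fabp4, Cox8b, Adipoq, Plin1 and Elovl3) have a locus that matches the annotated gene. Ucp1 (ENSMUSG00000031710.4) lies on the plus strand of chromosome 8 at 83290352 to 83298452 on GRCm38. Fabp4 (ENSMUSG00000062515.3) lies on the minus strand of chromosome 3 at 10204088 to 10208576, and Cox8b (ENSMUSG00000025488.9) on the minus strand of chromosome 7 at 140898945 to 140900446. Adipoq lies on chromosome 16 at 23146536 to 23158028, Plin1 on chromosome 7 at 79720218 to 79732903, and Elovl3 on chromosome 19 at 46131897 to 46135694. Cox7a1 was counted in a locus joined with the long noncoding RNA gene Gm5113, whose annotated interval, 30169875 to 30182324 on chromosome 7, is next to that of Cox7a1 at 30184144 to 30186078 on the same strand. The value printed for Cox7a1 is therefore that of the joined locus.

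The promoters of Ucp1, Cox8b and Adipoq are shown because Ucp1 and Cox8b followed each other closely across the groups and Adipoq is the most fat-specific of the weak members. They are RefSeq sequences on GRCm38.p6, 250 bases before and 50 bases after the annotated start, read 5′ to 3′ on the gene's strand, at chr8:83290098-83290397 (plus), chr7:140900397-140900696 (minus) and chr16:23146286-23146585 (plus).
Ucp1: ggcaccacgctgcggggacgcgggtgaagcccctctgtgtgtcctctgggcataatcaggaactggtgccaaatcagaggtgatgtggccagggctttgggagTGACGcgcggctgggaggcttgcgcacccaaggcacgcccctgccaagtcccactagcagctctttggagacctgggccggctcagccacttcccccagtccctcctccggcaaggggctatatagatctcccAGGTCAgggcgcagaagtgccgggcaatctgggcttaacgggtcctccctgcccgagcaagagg
Cox8b: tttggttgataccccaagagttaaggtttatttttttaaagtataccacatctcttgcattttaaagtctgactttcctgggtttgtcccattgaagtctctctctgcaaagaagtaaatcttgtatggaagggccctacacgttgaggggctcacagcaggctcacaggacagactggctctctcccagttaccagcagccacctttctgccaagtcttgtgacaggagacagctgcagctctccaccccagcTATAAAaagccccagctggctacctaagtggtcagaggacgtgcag
Adipoq: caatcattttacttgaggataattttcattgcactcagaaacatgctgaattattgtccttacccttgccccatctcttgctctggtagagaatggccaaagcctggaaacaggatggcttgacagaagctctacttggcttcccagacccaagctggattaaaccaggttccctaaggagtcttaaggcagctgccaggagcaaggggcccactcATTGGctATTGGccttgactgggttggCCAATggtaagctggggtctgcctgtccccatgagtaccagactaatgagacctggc
Capitals mark matches, on either strand, to the motifs searched, which did not overlap in these windows. They were the nuclear receptor half-site AGGTCA, its direct repeat with 1 base between the copies, bound by PPAR and RXR, the cyclic AMP response half-site TGACG, the CCAAT box CCAAT and the TATA box TATAAA. Ucp1 had 1 half-site, at position -14 relative to the annotated start, and 1 TGACG, at position -147. Cox8b had only a TATAAA, at position 4, and Adipoq had 3 CCAAT boxes, at -34, -27 and -7. No direct repeat was found in the 3 windows. Of 32851 RefSeq promoters of the same length, 16.3% held AGGTCA, 0.0396% the direct repeat, 20.8% TGACG, 37.4% CCAAT and 13.6% TATAAA, so the single matches are common ones. RefSeq entries were also found for Cox7a1 and Plin1, which are not printed.

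Ucp1 was the clearest member. It was 7.70 FPKM in SMA cords and 3.66 FPKM in control cords at P2, 8.44 FPKM in SMA cords and 1.05 FPKM in control cords at P6, and 0.159 FPKM in the group labelled SMA and 0.251 FPKM in control cords at P10. Both SMA values before P10 were the highest of the 6 groups, and both P10 values were the lowest. In estimated fragments the pairs were 112 and 52.9 at P2, 122 and 15.3 at P6, and 2.21 and 3.58 at P10, SMA first. The SMA level was 2.1 times the control level at P2 and 8.01 times at P6. At P6 the authors' interval ran from 3.75 to 13.1 FPKM in SMA cords and from 0.127 to 1.98 FPKM in control cords, so the 2 intervals were apart; at P2 they overlapped. At P10 the fragment ratio was 0.617 with an exact counting interval of 0.0452 to 3.49, and no difference was detectable at this depth. Counting intervals treat the rounded estimated fragments as counts and cover counting error only.

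Fabp4, the fatty acid carrier also called aP2, followed Ucp1 at nearly the same level. It was 7.46 FPKM in SMA cords and 3.64 FPKM in control cords at P2, 10.6 FPKM in SMA cords and 1.47 FPKM in control cords at P6, and 0.200 FPKM in the group labelled SMA and 0.324 FPKM in control cords at P10. The order of the 6 groups was the same as for Ucp1. The ratio of SMA to control was 2.05 at P2 and 7.25 at P6, where the interval was 3.64 to 17.6 FPKM in SMA cords and 0.0374 to 2.90 FPKM in control cords. Fabp4 at P10 rested on 2.11 and 2.66 estimated fragments.

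Cox8b, the heart, muscle and brown fat form of a cytochrome c oxidase subunit, was 4.71 FPKM in SMA cords and 2.06 FPKM in control cords at P2 and 4.65 FPKM in SMA cords and 0.327 FPKM in control cords at P6. It was listed at 0 in both groups at P10. Because the transcript is short, these levels rest on few fragments: 6.85 in SMA cords and 3.27 in control cords at P2, and 6.95 in SMA cords and 0.482 in control cords at P6. Against the floor of 3 fragments for the control group, the SMA value at P6 was at least 2.32-fold higher; the plain FPKM ratio of 14.2 has a control value below that floor. At P2 the fragment ratio was 2.1, with a counting interval of 0.533 to 14.0.

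**Figure D1:**
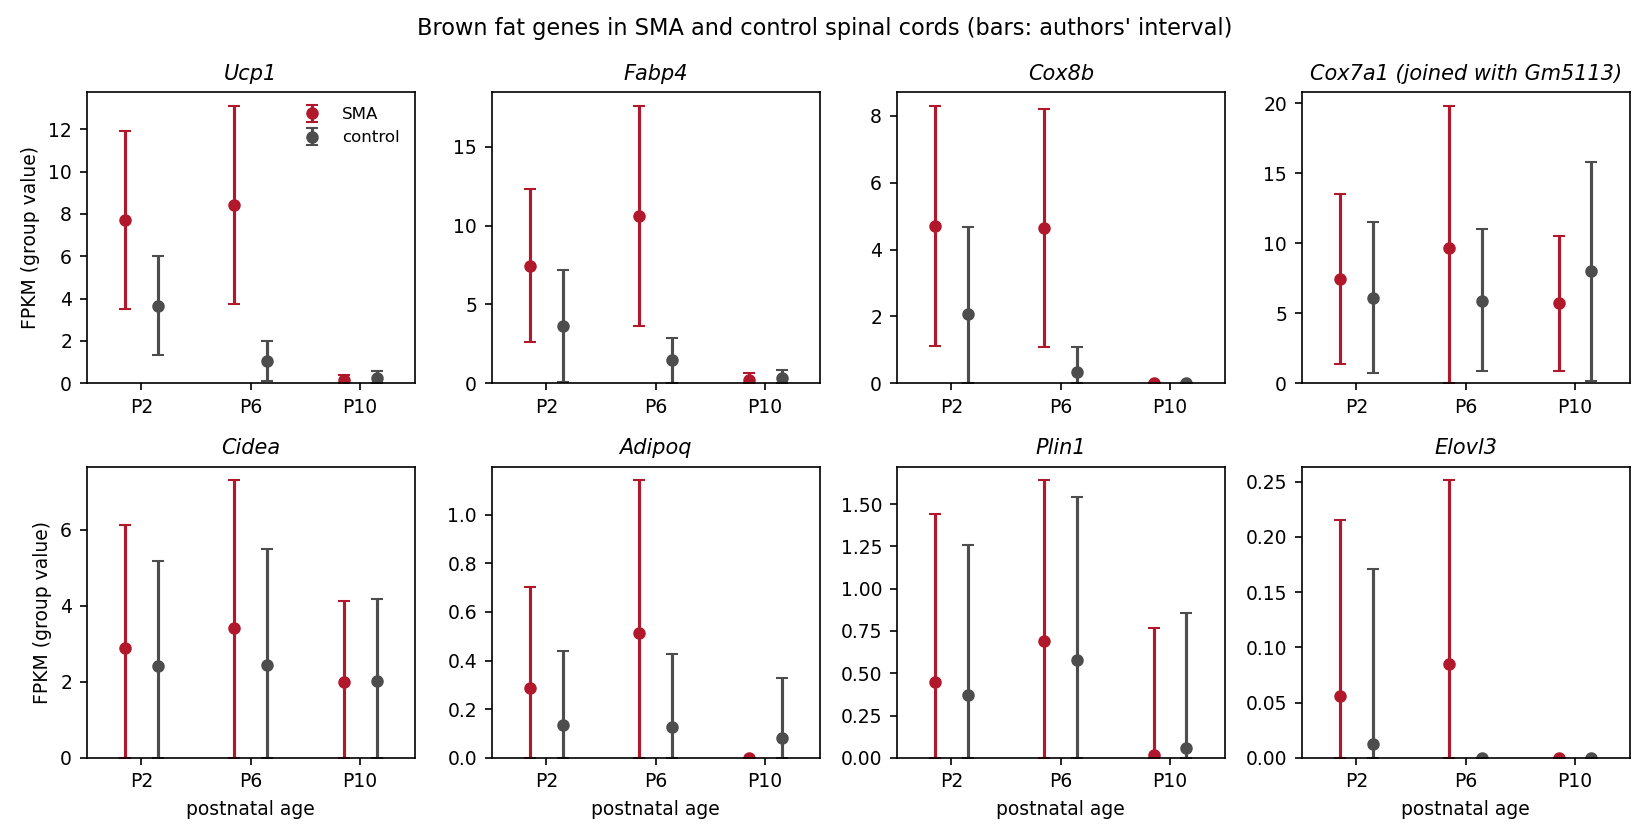
FPKM of the 8 brown fat genes (vertical axes, each with its own scale) at P2, P6 and P10 in SMA (red) and control (grey) cords; a point is the authors' group value and its bar the authors' interval. Ucp1, Fabp4 and Cox8b are high in SMA cords at P2 and P6 and near 0 at P10, whereas the joined Cox7a1 locus and Cidea stay between 1.98 and 9.64 FPKM in every group.

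The weaker fat cell genes had the same order between SMA and control cords before P10, from very few fragments. Adipoq, which encodes the fat hormone adiponectin, was 0.288 FPKM in SMA cords and 0.136 FPKM in control cords at P2 and 0.511 FPKM in SMA cords and 0.125 FPKM in control cords at P6. At P10 it was listed at 0 in the group labelled SMA and was 0.0812 FPKM in control cords. The P6 pair stood for 5.97 and 1.45 fragments, a ratio of 4.13 with a counting interval of 0.728 to 276. Plin1, the coat protein perilipin of lipid droplets, was 0.690 FPKM in SMA cords and 0.578 FPKM in control cords at P6, a ratio of 1.19, but its estimated fragments were 13 and 5.16, a ratio of 2.52 with a counting interval of 0.870 to 9.31. FPKM and fragments thus gave different sizes for Plin1. At P2 Plin1 was 0.450 FPKM in SMA cords and 0.372 FPKM in control cords, and at P10 it was 0.0189 FPKM in the group labelled SMA and 0.0599 FPKM in control cords. Elovl3, an elongase of very long fatty acids induced by cold in brown fat, had fewer than 1 estimated fragment in every group, at most 0.974 in SMA cords at P6; no fold is given for it.

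Cox7a1 and Cidea did not share the pattern. The locus of Cox7a1 and Gm5113 was 7.46 FPKM in SMA cords and 6.12 FPKM in control cords at P2, 9.64 FPKM in SMA cords and 5.90 FPKM in control cords at P6, and 5.72 FPKM in the group labelled SMA and 7.98 FPKM in control cords at P10. Its highest value was only 1.69 times its lowest. In estimated fragments the P6 pair was 163 in SMA cords and 168 in control cords, so the higher FPKM in SMA had no counterpart in fragments. Cidea, a lipid droplet protein, was 2.88 FPKM in SMA cords and 2.41 FPKM in control cords at P2, 3.42 FPKM in SMA cords and 2.43 FPKM in control cords at P6, and 1.98 FPKM in the group labelled SMA and 2.02 FPKM in control cords at P10. Unlike Ucp1, it kept its level at P10, at 23.4 fragments in the group labelled SMA and 23.1 in control cords. The Cidea locus is recorded with the interval 67289222 to 67367794 of chromosome 18, which it shares with its neighbour Impa2, while Cidea itself is annotated from 67343604 to 67367785. Both genes have values of their own in the tables. The neighbour Impa2, which encodes an inositol monophosphatase, was 2.30 FPKM in SMA cords and 2.31 FPKM in control cords at P6. Whether reads from outside Cidea contribute to its value was not tested.

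By count, the FPKM of 8 of 8 genes was higher in SMA cords at P2 and at P6, where 48.3% and 58.0% of 21962 loci that reached FPKM 1 in some group had a higher value; at P10 that share was 55.6%. On log2 of FPKM with a pseudocount of 0.1, 3 of 8 were at 2-fold or more at P2 (Ucp1, Fabp4 and Cox8b, at 1.05, 1.01 and 1.16), and 3.47% of those loci were past that fold upwards and 2.56% downwards. At P6, 4 of 8 were past it (Ucp1 at 2.89, Fabp4 at 2.78, Cox8b at 3.47 and Adipoq at 1.44), against 1.83% of the loci upwards and 2.68% downwards. At P10, 0 of 8 were higher, 6 had a lower value in the group labelled SMA, 2 were equal at 0, and none was past 2-fold in either direction, where 3.01% of the loci were 2-fold or more higher and 1.81% lower. Since the genes were chosen on this contrast, nothing is read from these counts. Of the 8, 3 never reached FPKM 1 (Adipoq, Plin1 and Elovl3), and among the 18413 loci with a mean FPKM of 0.05 to 1 the share past 2-fold higher was 6.73% at P2, 6.82% at P6 and 9.35% at P10. The 3 P2 ratios sit just past the fold, and with a pseudocount of 1 in place of 0.1 the P2 count was 0.

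Placed among all protein-coding genes with a single symbol and FPKM 1 or more in either group, Cox8b, Ucp1 and Fabp4 ranked 2, 3 and 4 of 11808 by ratio at P6. The members were chosen on this contrast, so their ranks and the intervals given below describe them and test nothing. Rank 1 was the predicted gene Gm37419, at 70.0 FPKM in SMA cords at P6 and listed at 0 in the other 5 groups, a value that rests on 0.178 estimated fragments. After the members came Stfa2l1 (1.01 FPKM in SMA and 0.110 in control cords), Pabpc1l (1.20 and 0.165), Slc9b1 (1.69 and 0.271), Psd4 (1.78 and 0.292), Sult2a8 (1.09 and 0.194) and Spink10 (1.04 and 0.227), all at lower FPKM in SMA cords than any of the 3. Psd4 had 32.0 fragments in SMA and 30.0 in control cords, and the other 5 had at most 6.12. Cox8b itself rested on 6.95 fragments in SMA and 0.482 in control cords, and its rank uses that control value, which is below the floor. The 10 highest outside the members also included Avil, a gene of sensory neurons, and Lars2, a mitochondrial tRNA synthetase at 5070 FPKM in SMA and 1691 FPKM in control cords. The interval of the SMA group lay wholly above that of the control group for 14 of 19631 loci at P6, or 0.0713%, and the 2 protein-coding loci with a single symbol among them were Ucp1 and Fabp4. At P2 it did so for 34 of 19114 loci (0.178%) and at P10 for 10 of 20157 (0.0496%), in both cases without any of the 8 genes.

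**Figure D2:**
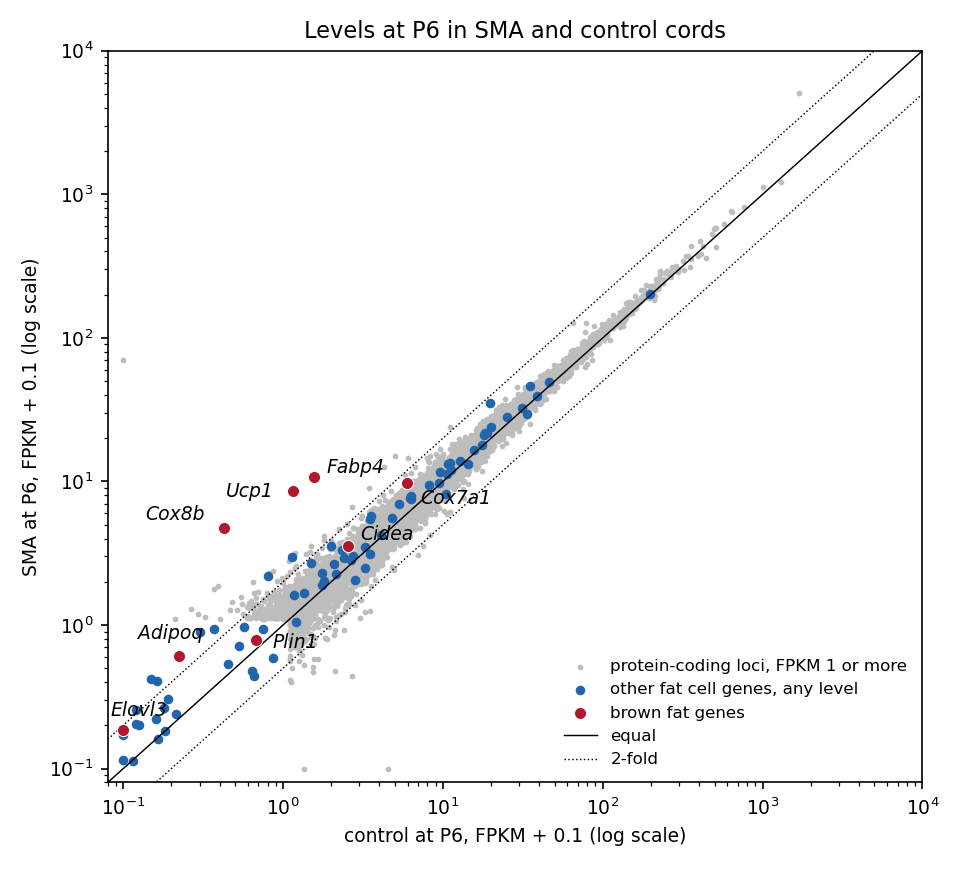
FPKM plus 0.1 at P6 in SMA (vertical, log scale) and control cords (horizontal, log scale) for protein-coding loci at FPKM 1 or more (grey), the other fat cell genes at any level (blue) and the 8 brown fat genes (red); solid line, equal levels; dotted lines, 2-fold. Ucp1 (8.44 and 1.05 FPKM), Fabp4 and Cox8b lie away from the cloud, while Cox7a1, Cidea and Plin1 lie within 2-fold of equal levels.

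Across ages, control cords had less Ucp1, Fabp4 and Cox8b at each later age. Ucp1 was 3.66, 1.05 and 0.251 FPKM in control cords at P2, P6 and P10, and Fabp4 was 3.64, 1.47 and 0.324 FPKM. In SMA cords the level at P6 was close to that at P2: the P6 value was 1.10 times the P2 value for Ucp1, 1.43 times for Fabp4 and 0.986 times for Cox8b, whereas in control cords these ratios were 0.288, 0.403 and 0.159. The wider gap at P6 thus lay mainly in a lower control value. Both genes were lowest at P10 in both genotypes, at 2.11 to 3.58 fragments, so no fold is given for that step. These age ratios share their groups with the contrast on which the genes were chosen and are not tested. In the order of the 6 levels, the authors' intervals of every neighbouring pair overlapped for all 8 genes.

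Of the members, Fabp4 stayed closest to a fixed proportion of Ucp1. Its FPKM divided by that of Ucp1 was 0.969 in SMA and 0.996 in control cords at P2, 1.26 and 1.39 at P6, and 1.26 and 1.29 at P10, where the 2 genes had only 2.11 to 3.58 fragments, around or below the floor. Cox8b relative to Ucp1 was 0.612 in SMA and 0.562 in control cords at P2, 0.550 and 0.310 at P6, the last resting on under 1 fragment, and 0 in both groups at P10. Adipoq relative to Ucp1 was 0.0374 and 0.0371 at P2, 0.0605 and 0.118 at P6, and 0 and 0.323 at P10. Plin1 relative to Ucp1 was 0.0584 and 0.102 at P2, 0.0817 and 0.548 at P6, and 0.119 and 0.239 at P10. Cidea relative to Ucp1 was not constant, at 0.374 in SMA and 0.659 in control cords at P2 and 12.5 and 8.04 at P10. Summed over the 6 genes with a locus of their own, the level was 20.7 FPKM in SMA and 9.88 FPKM in control cords at P2, 25 and 3.55 FPKM at P6, and 0.378 and 0.716 FPKM at P10. Over the 6 groups Pearson's r of log2(FPKM + 0.1) with Ucp1 was 0.997 for Fabp4 and for Cox8b, 0.921 for Cidea with a log2 range of only 0.76, 0.907 for Adipoq, 0.863 for Plin1, 0.853 for Elovl3 and 0.473 for the Cox7a1 locus. These 6 points share their libraries, so r is a description only. In whole-tissue RNA, fewer fat cells in a sample and less RNA per fat cell cannot be told apart.

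**Figure D3:**
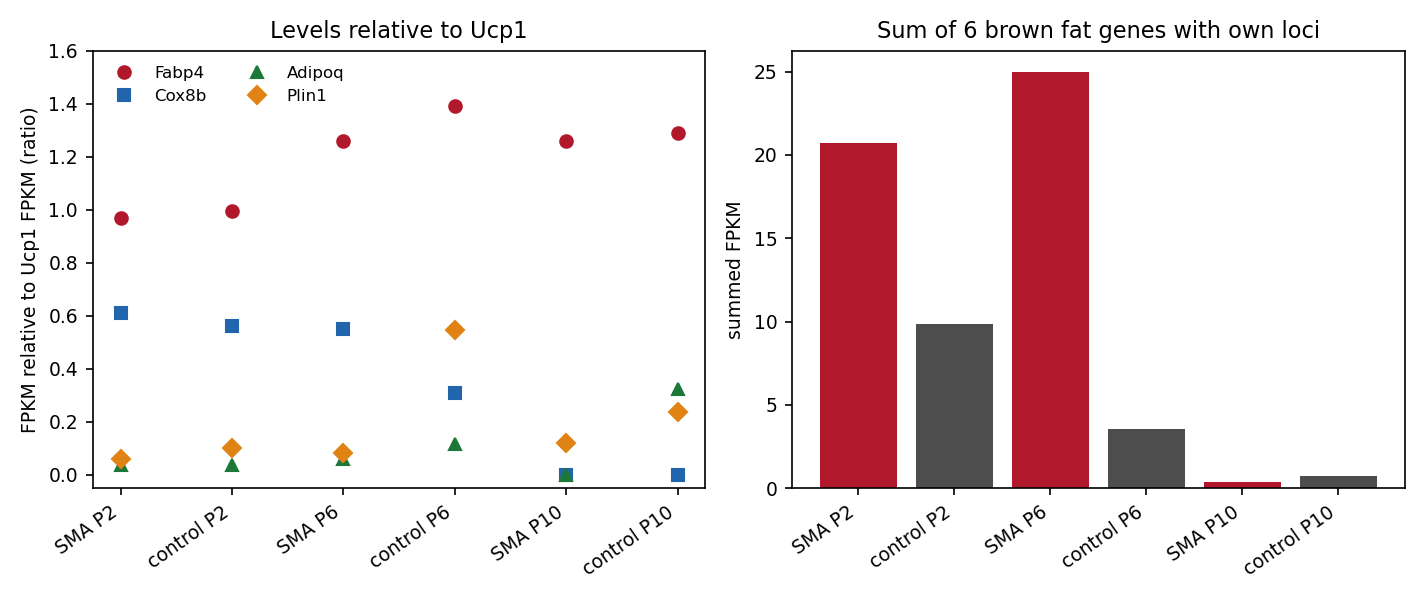
Left, FPKM of Fabp4, Cox8b, Adipoq and Plin1 divided by the FPKM of Ucp1 in each of the 6 groups; right, summed FPKM of the 6 brown fat genes that have a locus of their own (SMA red, control grey). The Fabp4 ratio stays between 0.969 and 1.39, that of Plin1 runs between 0.0584 and 0.548, and the sum runs between 0.378 and 25 FPKM.

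Other genes of fat cells were taken from 4 lists of 81 genes in all, of which 77 had a locus with a single symbol and 53 reached FPKM 1 in some group; the lists were drawn up with earlier results of these data known. By the z test on the authors' intervals, with Benjamini-Hochberg adjustment over all loci, 0 of the 50 to 53 testable genes were called at any age. That test called 0.126% of 19114 loci at P2, 0.0458% of 19631 at P6 and 0.0397% of 20157 at P10, and 142, 33 and 43 loci had an unadjusted p under 0.05. The median log2 ratio of the 53 genes was 0.22 at P2, 0.22 at P6 and -0.09 at P10, beside -0.01, 0.06 and 0.04 over all 21962 loci. Of the 53 genes, 46 had a higher value in SMA cords at P6 and 7 a lower one, and 2 were 2-fold or more higher, Tusc5 and Cd36. Over the 21962 loci 58.0% had a higher value at P6 and 1.83% were 2-fold or more higher. At P2 39 of the 53 genes were higher, 14 lower and 6 past 2-fold higher, where 48.3% of the loci were higher and 3.47% past 2-fold higher. At P10 22 were higher and 31 lower, with 0 at 2-fold or more higher and 1 at 2-fold or more lower. Of the loci, 55.6% were higher at P10, 3.01% were 2-fold or more higher and 1.81% 2-fold or more lower.

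Without an FPKM minimum, the fat genes at 2-fold or more higher at P6 were 7 of 77, or 9.09%, against 2.74% of all 58570 loci higher and 3.40% lower and 6.82% of loci at a mean FPKM of 0.05 to 1 higher, and 0 of the 77 were 2-fold or more lower. Neither share is matched to the 77 genes by level, since 53 of them reached FPKM 1 in some group. Of those 53, 2 were 2-fold or more higher, where 1.83% of the loci at that level were. Several of the 7 genes are also expressed outside fat. Tusc5, a membrane protein of fat cells that affects glucose transporter traffic, was 2.1 FPKM in SMA and 0.700 FPKM in control cords, on 68.4 and 22.1 fragments (log2 ratio 1.46 ± 0.78, SE from the interval, not called). Cd36, the fatty acid translocase, was 2.89 FPKM in SMA and 1.03 FPKM in control cords (log2 ratio 1.40 ± 0.85, not called). Pck1, used by fat cells to make glycerol phosphate, was 0.787 FPKM in SMA and 0.203 FPKM in control cords, on 18.9 and 4.93 fragments. Cidec, a relative of Cidea that enlarges lipid droplets, was 0.310 FPKM in SMA and 0.0632 FPKM in control cords. It rested on 4.92 and 1.02 fragments, the control value below the floor of 3. Gpihbp1, which anchors lipoprotein lipase to capillaries, was 0.321 FPKM in SMA and 0.0495 FPKM in control cords. It rested on 1.88 and 1.02 fragments, both below the floor. From estimated fragments the log2 ratio of Gpihbp1 was 0.52, short of 2-fold. Plin5 was 0.834 FPKM in SMA and 0.270 FPKM in control cords, and the glycerol channel Aqp7 0.156 and 0.0198 FPKM.

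At P2, 10 of 77 genes were 2-fold or more higher and 1 lower, where 3.18% and 3.47% of all loci were; among loci at a mean FPKM of 0.05 to 1, 6.73% were higher. They included Gpd1 (10.2 FPKM in SMA and 2.31 FPKM in control cords), Scd1 (35.1 and 12.8), Agt (32.6 and 12), Dio2 (2.11 and 0.701), Acot11 (5.77 and 2.36) and Thrsp (2.02 and 0.735), genes of lipid and hormone handling, some of which glial cells also express. Gpd1 had a log2 ratio of 2.09 ± 0.65 and was not called. At the same age the myelin gene Mag was 145 FPKM in SMA and 11.1 FPKM in control cords and was called higher by the z test, with a log2 ratio of 3.69 ± 0.92 (SE); its part in these differences was not tested. At P10, 0 of 77 were 2-fold or more higher and 2 were lower (3.74% and 2.34% of all loci), Cd36 (0.323 FPKM in the group labelled SMA and 0.757 FPKM in control cords) and Adig, an adipogenesis gene listed at 0 in that group and at 0.136 FPKM in control cords.

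The brown fat identity and thermogenesis list held no gene past 2-fold at P6. Of its 18 genes at FPKM 1 or more, 14 were higher and 4 lower at P6, with a median log2 ratio of 0.13. Of all loci at that level, 58.0% were higher at P6 and 1.83% were 2-fold or more higher. At P2, 2 of the 18 were 2-fold or more higher, Dio2 and Acot11, where 3.47% of the loci were. Many genes of this list are also expressed by neurons or glia. Fabp3 and Esrrg, the most abundant of them, and the coactivator Ppargc1a were present in all groups, Ppargc1a at 9.35 FPKM in SMA and 8.02 FPKM in control cords at P6 and Fabp3 at 45.8 and 34.9 FPKM. Prdm16, a transcriptional regulator that directs cells to the brown fat fate, was 2.40 FPKM in SMA and 3.16 FPKM in control cords at P6. Adrb3, the adrenergic receptor of fat cells, was 0.380 FPKM in SMA and 0.541 FPKM in control cords, and Cited1 1.97 and 2.72 FPKM. Ucp3, the muscle and brown fat relative of Ucp1, was 0.104 FPKM in SMA and 0.0207 FPKM in control cords, and Otop1 0.10 and 0.0256 FPKM. Both genes were below the floor of 3 fragments, Ucp3 at 2.48 and 0.482 and Otop1 at 1.82 and 0.482. Pparg, the master regulator of fat cells, was 0.608 FPKM in SMA and 0.427 FPKM in control cords, and Cebpa 0.874 and 0.468 FPKM. Leptin (Lep), a hormone of white fat, was 0.0120 FPKM in SMA and 0.0147 FPKM in control cords at P6.

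The remaining lists held 8 measured genes each for fat cell identity and for lipid droplets and 19 for fatty acid uptake and triglyceride synthesis. Their medians at P6 were 0.22, 0.28 and 0.20. Cebpb was 3.47 FPKM in SMA and 1.90 FPKM in control cords at P6, Agt 34.9 and 19.7 FPKM and Lpl, lipoprotein lipase, 2.62 and 1.40 FPKM. Acvr1c was 0.485 FPKM in SMA and 0.770 FPKM in control cords, and the adipokine Cfd 0.0602 and 0.0656 FPKM. Genes of fat synthesis that the cord itself uses for membranes lay near equality, Fasn at 39.1 FPKM in SMA and 38.5 FPKM in control cords and Acly at 49.0 and 46.2 FPKM, as did the monoglyceride lipase Mgll at 21.7 and 18.7 FPKM, Fitm2 at 7.55 and 6.13 FPKM and Pnpla2 at 2.16 and 2.04 FPKM. Mlxipl, a carbohydrate response factor, was 0.339 FPKM in SMA and 0.558 FPKM in control cords, Acacb 0.952 and 1.11 FPKM, and Hilpda 1.81 and 1.65 FPKM. Nnat, also abundant in developing neurons, was 202 FPKM in SMA and 196 FPKM in control cords.

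Relatives of the members that most cells or neural cells use varied less over the groups than Ucp1 did. Cox8a, the form of the oxidase subunit found in most tissues, stayed between 182 and 203 FPKM in the 6 groups, against 0 to 4.71 FPKM for Cox8b. Cox7a2 ranged between 88.0 and 102 FPKM, Fabp5 between 138 and 157 FPKM, and Ucp2 between 6.45 and 11.1 FPKM. Fabp7, the fatty acid carrier of radial glia and astrocytes, was 311 FPKM in SMA and 353 FPKM in control cords at P6. Plin2, the perilipin of most cell types, was 6.89 FPKM in SMA and 5.20 FPKM in control cords at P6. Of 21 relatives at FPKM 1 or more, 0 were past 2-fold at P6 in either direction. Of all loci at that level, 1.83% were past it upwards and 2.68% downwards. Without that minimum 2 of 26 relatives were higher, where 2.74% of all loci were. These were Cidec and Plin5, at log2 ratios of 1.33 and 1.34. Cidec rested on 1.02 fragments in control cords at P6, below the floor. At P2, 2 of the 21 were 2-fold or more higher, where 3.47% of loci at FPKM 1 or more were. They were Elovl7, at 12.4 FPKM in SMA and 2.79 FPKM in control cords, and Elovl1, at 19.2 and 7.58 FPKM. These 2 were not flat over the 6 groups, Elovl7 ranging between 2.79 and 27.9 FPKM and Elovl1 between 7.58 and 34.2 FPKM. None of the relatives was called by the z test at any age.

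Markers of other tissues that border the cord or could share genes with fat are given for the same contrast, and their part in the brown fat values was not tested. At P6 the sensory ganglion markers were also higher in SMA cords, in 8 of 8 measured genes with 6 at 2-fold or more and a median log2 ratio of 1.30. Of all loci at FPKM 1 or more in some group, 58.0% were higher at P6 and 1.83% were 2-fold or more higher. The summed level of the sensory ganglion markers was 50.8 FPKM in SMA and 37.4 FPKM in control cords. Avil was 1.89 FPKM in SMA and 0.550 FPKM in control cords, and P2rx3 1.5 and 0.446 FPKM. At P2, when Ucp1 was also high, the same list had a summed level of 29.0 FPKM in SMA and 38.9 FPKM in control cords. Skeletal muscle markers, which share Cox8b and Cox7a1 with brown fat, summed to 25.2 FPKM in SMA and 23.3 FPKM in control cords at P6, a ratio of 1.08, and to 40.4 and 27.0 FPKM at P2. The muscle and heart subunit gene Cox6a2 was 0.0382 FPKM in SMA and 0.194 FPKM in control cords at P6, on 0.178 and 0.777 fragments. Heart markers summed to 4.67 FPKM in SMA and 5.25 FPKM in control cords at P6. Endothelial markers summed to 49.8 FPKM in SMA and 60.2 FPKM in control cords at P6, with 1 of 9 genes higher, and macrophage and microglia markers to 55.3 and 49.0 FPKM. At P2 the endothelial markers summed to 55.2 FPKM in SMA and 43.9 FPKM in control cords. There 9 of 9 of them were higher in SMA cords, where 48.3% of loci at FPKM 1 or more in some group were. Fibroblast and meningeal markers summed to 189 FPKM in SMA and 157 FPKM in control cords at P6 with 11 of 14 higher, and bone and cartilage markers to 5.56 and 4.30 FPKM. At P2 the bone and cartilage markers were higher in SMA cords in 9 of 9 genes at any level, where 48.3% of loci at FPKM 1 or more in some group were. Their sum at P2 was 7.26 FPKM in SMA and 3.56 FPKM in control cords. The ratio of this sum was 2.04 at P2 and 1.29 at P6, and that of the 6 brown fat genes 2.09 and 7.04. Blood markers summed to 817 FPKM in SMA and 986 FPKM in control cords. In the group labelled SMA at P10, fibroblast and meningeal markers were lower in 14 of 14 genes, at 94.7 FPKM against 162 FPKM in control cords, and endothelial markers in 9 of 9, at 50.0 against 68.2 FPKM. Of all loci at FPKM 1 or more in some group, 55.6% had a higher value in that group at P10.

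**Figure D4:**
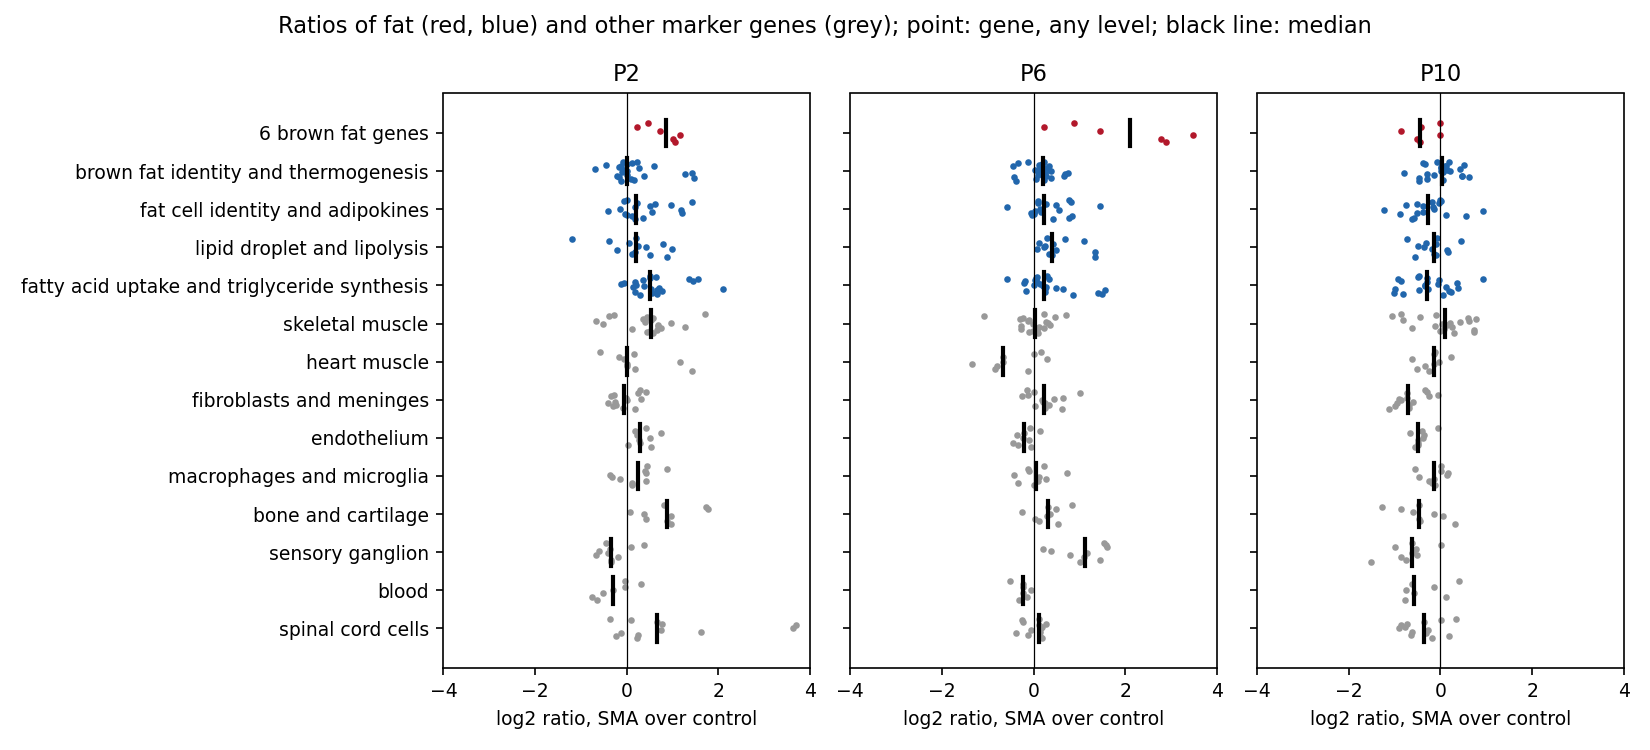
Log2 ratio of SMA over control at P2, P6 and P10 (horizontal; FPKM with a pseudocount of 0.1) for each gene of the fat lists (red and blue) and other marker lists (grey), at any level; black lines are list medians. At P6 the 6 brown fat genes, with a median of 2.11, and the sensory ganglion genes, with a median of 1.13, stand to the right of 0. Of these brown fat genes, Elovl3 rests on 0.974 fragments in SMA and 0 in control cords at P6. Adipoq and Cox8b rest on 1.45 and 0.482 fragments in control cords at P6, below the floor of 3. The heart muscle genes have a median of -0.66, but several of them rest on fewer than 3 fragments. Over the 3 heart muscle genes at FPKM 1 or more in some group the median was -0.13.

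The genes most like the set over the 6 groups were ranked by Pearson's r of log2(FPKM + 0.1) with the mean of the scaled members, among 257 protein-coding genes with a log2 range of 2 or more. Cd36 came first with r = 0.967, followed by the integrin gene Itga11 at 0.853. Further genes among the 10 most alike were the skeletal muscle genes Tnnt3 (0.846) and Tnnc2 (0.824), and Gm21887 (0.780), Acta1 (0.779), Myl1 (0.773), Myh8 (0.753) and Hoxb13 (0.730). The muscle genes resembled the set in their decline with age: Acta1 was 8.45 FPKM in SMA and 5.67 FPKM in control cords at P2, 3.85 and 3.58 FPKM at P6, and 0.870 and 0.686 FPKM at P10. They lacked the gap at P6, where the log2 ratio of Acta1 was 0.10 and that of Ucp1 2.89. Since 6 points allow high r values in many genes, the ranking is a description and carries no test.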

How the data were processed

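RNA of whole spinal cords was made into stranded, ribosome-depleted total RNA libraries, per the labels' protocols. Per the submitters' processing notes the tools were Cuffdiff, Cufflinks 2.2.1, FastQC, TopHat2 2.1.1, Bowtie2 2.2.4 and Picard, with GRCm38; their options and annotation are not given in the sources used here. The authors deposited FPKM with interval bounds, and expected counts (estimated fragments), 1 value per group of 3 libraries. Another deposited column, the count variance, is a score in squared fragments and was used only in an alternative test. The reference annotation was GENCODE M21 on GRCm38.

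Members and lists were chosen with earlier results of these data known. Ratios are log2 of FPKM plus 0.1. List genes needed a single-symbol locus; of several, the one overlapping the annotated gene with most fragments was used. SMA and control were set against each other with a z test (two-sided) on the log2 ratio of FPKM, whose standard error came from the upper interval bound, read as that of a 95% interval; loci needed FPKM 1 or more in either group, and p-values were adjusted by Benjamini-Hochberg over all loci. Observed z spread far less than a standard normal would (robust SD 0.270, 0.262 and 0.294 at P2, P6 and P10), so the test called few loci. Named genes were the members, the extremes and most abundant genes of each fat list, the 10 highest at P6 and the 10 most alike; for the other lists only some of the genes this rule names are printed. Ppargc1a, Prdm16, Pparg, Lep, Lpl, Cox7a2, Fabp5, Ucp2, Plin2, Elovl1, Elovl7, Impa2 and the other P2 fat genes were named to describe their lists after values were seen. A gene that the rule names is not reported here. Scripts ran in Python 3.11.15 with matplotlib 3.10.9, scipy 1.17.1, pandas 2.3.3 and numpy 2.4.6.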

Additional observations from a re-analysis of the deposited data

Results flagged for a closer look

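Of the 8 genes, 6 had opposite directions at P6 and P10 in FPKM, a difference that was not tested. The log2 ratios of SMA over control at P6 and P10 were 2.89 and -0.44 for Ucp1, 2.78 and -0.50 for Fabp4, 1.44 and -0.86 for Adipoq, 0.70 and -0.47 for the Cox7a1 locus, 0.47 and -0.03 for Cidea, and 0.22 and -0.43 for Plin1. From estimated fragments 4 genes were opposite, since the Cox7a1 locus was -0.04 at P6 and -0.18 at P10 and Cidea 0.44 and 0.02. The P10 values of Ucp1, Fabp4, Adipoq and Plin1 rest on 0 to 3.58 fragments per group, and Smn1 in the group labelled SMA at P10 was 2.82 FPKM, against 3.54 FPKM in control cords.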

How the results depend on the processing

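No paired analysis was possible because the tables hold 1 combined value per group, and leaving out single libraries could not be run for the same reason. Counts of members at 2-fold or more higher were 3 at P2, 4 at P6 and 0 at P10. At P2 they became 0 with a pseudocount of 1, 5 with 0.01 and 1 from estimated counts; at P6 and P10 every alternative run stayed within 1.5 times. Other fat genes past 2-fold, 6 at P2, 2 at P6 and 0 at P10, became 13, 7 and 1 at 1.5-fold. Without an FPKM minimum they were 10 at P2 and 7 at P6, and at P6 they were 0 both with a pseudocount of 1 and with an FPKM minimum of 5. Loci called by the z test numbered 24, 9 and 8 at P2, P6 and P10; by intervals that do not overlap they were 44, 23 and 16, and from the deposited counts 0 at P6 (8 at an unadjusted p under 0.05) and 0 at P10 (29). Of 105 single-gene ratios, 10 changed sign from estimated counts, among them the Cox7a1 locus at P6 (-0.04 against 0.70), and 4 after centring on the protein-coding median, which was 0.10 at P6; none of these was past 2-fold. Acacb changed sign from counts at all 3 ages and Mlxipl at P10. Why counts and FPKM differ was not tested. Depth limits all values near the floor of 3 fragments, which include all of Elovl3, Cox8b in control cords and every member at P10 except Cidea and the Cox7a1 locus.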
